A study of Homo sapiens with 10 samples.

Results

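The effect of α-amanitin at 1 μg/mL on gene expression and splicing was examined in A549 cells, a human lung adenocarcinoma line with wild-type p53. The members are the 2 libraries whose labels give α-amanitin at 1 μg/mL for 24 h and the 2 libraries labelled DMSO, the solvent control, together 4 of the 10 libraries of the series. The 2 libraries at 2 μg/mL α-amanitin (24 h) enter the fits and are given beside the results, and the libraries treated with another inhibitor of transcription do not. All groups are the same unmodified line, and the duration of the DMSO treatment is not given. The study calls its replicates bioreplicates without saying how they were grown, so the p-values reflect only how these libraries spread.

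α-Amanitin is a cyclic peptide of the death cap mushroom. It binds the largest subunit of RNA polymerase II (Pol II) and the bridge helix near the active site, slows the addition of nucleotides and promotes degradation of that subunit. Most introns are removed while the polymerase is still transcribing, at a 5′ splice site (the donor, which begins the intron with GT) and a 3′ splice site (the acceptor, which ends it with AG). The study used the drug to ask how slower elongation affects splicing.

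The deposited values are read counts. For each intron, split reads cross the exon junction left by its removal, and unspliced reads run across its 5′ boundary or its 3′ boundary into the intron. The α-amanitin libraries held 4400717 and 6498515 split reads over 77536 and 90955 introns, and the DMSO libraries held 4297890 and 4765752 split reads over 74739 and 75422 introns. Annotated introns took between 99.41% and 99.43% of the split reads in these 4 libraries. An intron was listed in a library only if its 5 deposited counts summed to at least 11. In replicate 1, for example, 3335 annotated introns were listed at 11 split reads and 590 at 10 after α-amanitin, against 3426 at 11 and 569 at 10 in DMSO. A missing intron is therefore not one shown to be unused, and a gene without a tested value is not shown to be unexpressed. Of the markers of other cell types, 1 of 5 for fibroblasts (COL1A1) and 0 of 5 each for endothelial cells and leukocytes had enough reads to be tested. COL1A1 differed as much between replicates (108 and 53.2 CPM, split reads relative to library size, after α-amanitin, against 165 and 12.8 in DMSO) as between groups. Of the epithelial markers KRT8 and KRT18 were measured (387 and 407, and 512 and 622, after α-amanitin, against 382 and 375, and 537 and 614, in DMSO), and the other 3 are not analysed here.

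**Figure D1:**
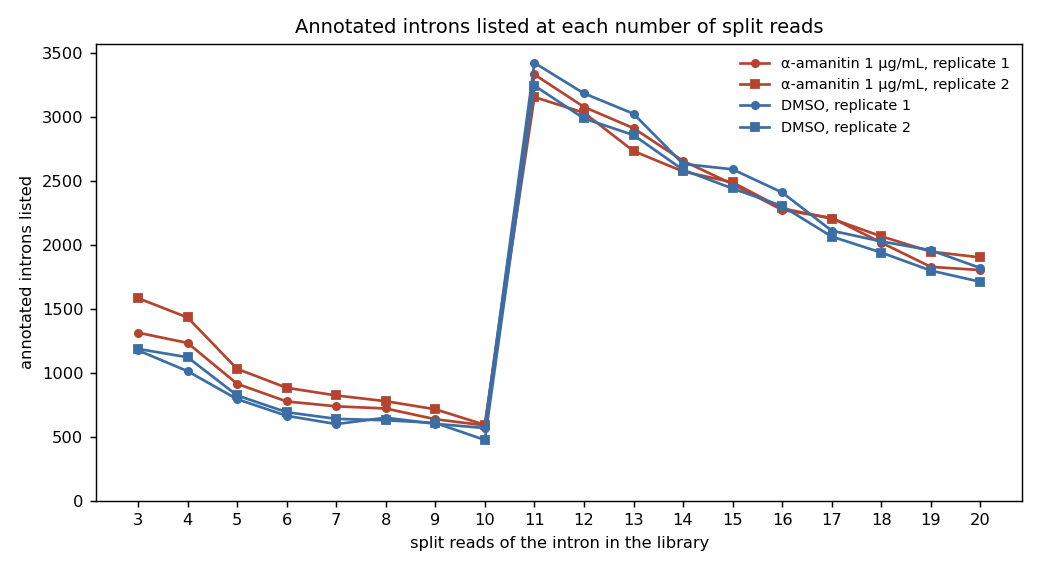
Annotated introns listed in each of the 4 libraries (y axis, number of introns) by the number of split reads of the intron in that library (x axis, reads). Each line is 1 library. All 4 lines jump between 10 and 11 split reads, which is the minimum above which an intron is listed on split reads alone.

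Splice sites of the genes in which the choice between competing sites differed most are shown first, because these carried the only differences past the threshold that did not involve an unlisted site. Each sequence is read 5′ to 3′ on the gene's strand from GRCh37, with 10 exon bases and 20 intron bases, and the capitals mark the GT that begins or the AG that ends the intron.
OCIAD1 donor, less used site, chr4:48833504-48833533, plus strand: gtaacggcagGTgggagacggacactgggt
OCIAD1 donor, most used site, chr4:48833257-48833286, plus strand: tcgtcgggagGTgggtgaggtgacgcaaac
LGALS8 donor, less used site, chr1:236706331-236706360, plus strand: tgtgtcaaagGTttgaagagcaccaaattt
LGALS8 donor, most used site, chr1:236706078-236706107, plus strand: gccccagcttGTgagtatttttgcctgggt
SNHG1 donor, less used site, chr11:62622585-62622614, minus strand: aatgttccagGTaggtgtacatggtttatg
SNHG1 donor, most used site, chr11:62622340-62622369, minus strand: gtgaatacagGTaattatccaaattggtgt
NETO2 donor, less used site, chr16:47156780-47156809, minus strand: tacctaggagGTattttaaatcccattcca
NETO2 donor, most used site, chr16:47156759-47156788, minus strand: cccattccagGTttagtatattaccacttg

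Gene expression was compared by split reads summed per gene, scaled by TMM (trimmed mean of M values) and given as CPM, the usual counts relative to the scaled library size. A fold change is on the log2 scale with its standard error (SE), positive where α-amanitin is higher, and the test was limma voom with Benjamini-Hochberg adjustment over 9636 genes. No gene passed an adjusted p of 0.05 (percent called 0), and the lowest adjusted p was 0.47. At an unadjusted p under 0.05 there were 972 genes, 504 of them higher (5.23%) and 468 lower (4.86%). With a term for the replicate number added to the fit, 11 genes passed (3 higher, 8 lower). No label ties the replicate numbers to a shared batch. Since no gene passed without that term, a gene is described by whether both α-amanitin libraries lay above or below both DMSO libraries. Over all genes tested, 21.9% lay wholly above DMSO and 19.4% wholly below it. When only introns listed in all 6 libraries were summed, these shares were 20.3% and 20%. The median log2 fold change of all genes was 0.04, and 0.11 when libraries were scaled by total split reads.

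POLR2A encodes RPB1, the largest subunit of Pol II and the one that α-amanitin binds. It had 502 and 349 CPM after α-amanitin, against 191 and 145 CPM in DMSO. Both treated libraries lay above both control libraries, and the mean was 2.5 times that of DMSO (log2 fold change 1.32 ± 0.25 SE, limma adjusted p = 0.47). All 28 introns of POLR2A (chr17:7387685-7417933) were listed in every library, so the minimum for listing does not enter this value. At 2 μg/mL it had 735 and 529 CPM (log2 fold change 1.90 against the same DMSO libraries, limma adjusted p = 0.019).

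The other subunits did not share this difference. POLR2B, which encodes the second largest subunit and forms the catalytic cleft with RPB1, had 313 and 292 CPM after α-amanitin, against 325 and 330 CPM in DMSO. POLR2L, a small subunit shared by all 3 nuclear polymerases, had 193 and 182 CPM after α-amanitin, against 122 and 164 CPM in DMSO (log2 fold change 0.40 ± 0.18 SE). Of the 12 subunit genes tested, POLR2A and POLR2L lay wholly above DMSO, POLR2B and POLR2J wholly below it, and the other 8 overlapped. That was 16.7% each way, beside 21.9% above and 19.4% below for all genes. The median log2 fold change of the 12 was 0.01, against 0.04 for all genes. POLR2J differed from DMSO by only -0.03, and its sign turned with the scaling. Among the 18 subunits of RNA polymerases I and III, which are far less sensitive to the toxin, 0 lay wholly above DMSO. Wholly below it lay 1 (5.56%). The median of -0.06 became 0.01 when libraries were scaled by total split reads. Of the hepatic transporters that carry α-amanitin into liver cells, SLCO1B3 was the 1 with enough reads, at 33.0 and 41.0 CPM after α-amanitin, against 52.0 and 54.0 CPM in DMSO.

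**Figure D2:**
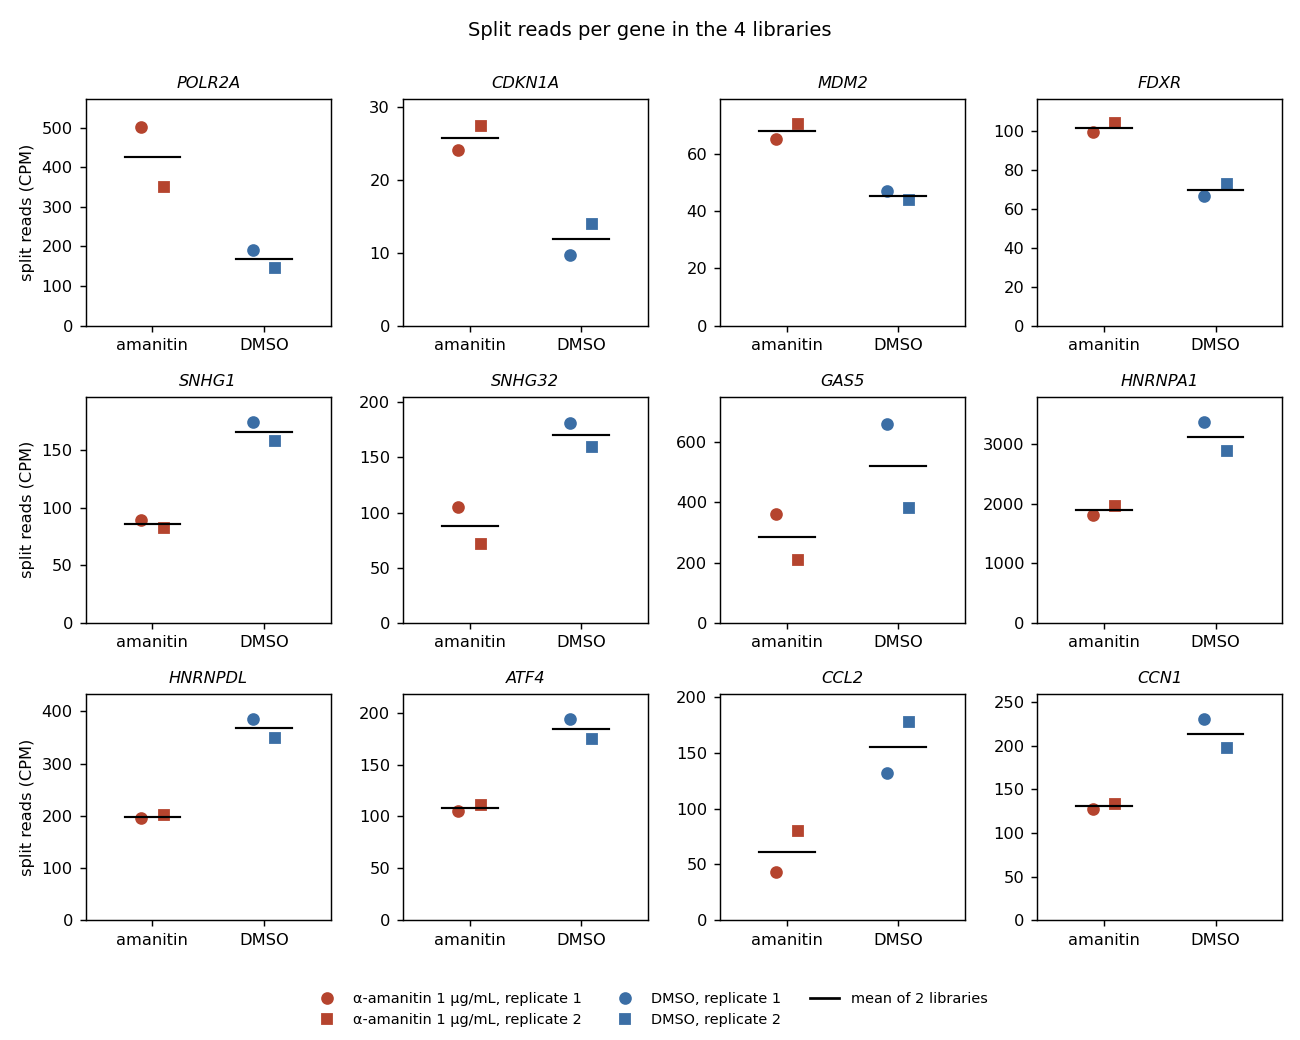
Split reads per gene (y axis, CPM after TMM scaling, each panel on its own scale from 0) of 12 genes in the 2 α-amanitin libraries (left of each panel) and the 2 DMSO libraries (right), with bars at the mean of 2 libraries. POLR2A and the p53 targets CDKN1A, MDM2 and FDXR lie above DMSO in both treated libraries, and the other 8 genes lie below DMSO in both.

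The gene lists differed in direction. The host genes of small nucleolar RNAs (snoRNAs) described here are spliced noncoding genes. Their introns release guide RNAs for ribosomal RNA modification, and their spliced transcripts are mostly short-lived. Of 15 listed, 14 were tested. All 14 lay wholly below DMSO, against 19.4% of all genes, with a median log2 fold change of -0.58. SNHG1 (chr11:62619450-62623425) had 89.6 and 82.3 CPM after α-amanitin, against 174 and 158 CPM in DMSO (log2 fold change -0.95 ± 0.14 SE, limma adjusted p = 0.47). SNHG32 had 105 and 71.3 CPM after α-amanitin, against 181 and 159 CPM in DMSO. GAS5, a host gene whose transcript is also a target of nonsense-mediated decay, had 361 and 208 CPM after α-amanitin, against 661 and 382 CPM in DMSO. In GAS5 the replicates of a group differed about as much as the groups, and the higher treated library lay just below the lower control library. SNHG5, the most abundant of the list, had 1290 and 1220 CPM after α-amanitin, against 1850 and 1710 CPM in DMSO. The weakest member was SNHG16, with 70.4 and 86.1 CPM after α-amanitin, against 89.4 and 87.5 CPM in DMSO. When only introns listed in all 6 libraries were summed, 13 of the 14 lay wholly below DMSO (92.9%, against 20% of all genes). The median was then -0.51.

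The hnRNP proteins bind nascent RNA and often repress splice sites. Of 20 tested, 16 lay wholly below DMSO and 0 above, with a median log2 fold change of -0.22. HNRNPA1, a repressor of exon inclusion, had 1820 and 1970 CPM after α-amanitin, against 3380 and 2880 CPM in DMSO (-0.71 ± 0.10 SE). HNRNPDL had 196 and 201 CPM after α-amanitin, against 385 and 350 CPM in DMSO (-0.88 ± 0.18 SE). HNRNPH3 had 186 and 226 CPM after α-amanitin, against 304 and 323 CPM in DMSO. In each of these 3 genes the replicates of a group lay closer to each other than to any library of the other group. The exceptions were HNRNPF, HNRNPM, HNRNPU and PTBP3, whose libraries overlapped. The count depended on which introns were summed. Over introns listed in all 6 libraries, 9 of the 20 lay wholly below DMSO (45.0%, against 20% of all genes). There 0 lay above (against 20.3% of all genes), and the median was -0.14.

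The SR proteins are splicing factors that mostly promote the use of splice sites. Of 12 tested, 6 lay wholly below DMSO (50.0%, against 19.4% of all genes) and 1 above (8.33%, against 21.9%), with a median of -0.19. SRSF3 had 435 and 512 CPM after α-amanitin, against 614 and 734 CPM in DMSO (-0.50 ± 0.17 SE), and SRSF7 had 439 and 519 CPM, against 529 and 700 CPM in DMSO. TRA2A lay above DMSO, with 117 and 124 CPM after α-amanitin, against 110 and 109 CPM in DMSO. Over introns listed in all 6 libraries, 3 lay wholly below DMSO (25.0%, against 20% of all genes) and 1 above (8.33%, against 20.3%). The core spliceosome was split. Of 31 tested, 13 lay wholly below DMSO (41.9%) and 2 wholly above (6.45%), with a median of -0.03. Over introns listed in all 6 libraries, 6 lay above and 6 below (19.4% each), near the shares of all genes. The median there was 0.02, which is the other sign. SF3B3, a component of the U2 particle that recognises the branch point, had 296 and 317 CPM after α-amanitin, against 466 and 461 CPM in DMSO. SNRNP70, the U1 protein that helps to recognise the 5′ splice site, went the other way, with 522 and 533 CPM after α-amanitin, against 436 and 384 CPM in DMSO (0.37 ± 0.10 SE). The CLK and SRPK kinases and cyclins L phosphorylate SR proteins or act with the kinases that do. Of 10 tested, 4 lay wholly above DMSO (against 21.9% of all genes) and 1 below (against 19.4%), with a median of 0.13. Over introns listed in all 6 libraries, 3 of the 10 lay above (against 20.3% of all genes) and 1 below (against 20%).

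Ribosomal protein genes are short, highly expressed and carry long-lived mRNAs. Of 55 tested, 45 lay wholly below DMSO (81.8%, against 19.4% of all genes) and 0 above. The median log2 fold change was only -0.20, and no member exceeded 0.33 in size. RPL6 had 1340 and 1450 CPM after α-amanitin, against 1650 and 1870 CPM in DMSO, and RPS12 had 1860 and 2040 CPM, against 2380 and 2530 CPM in DMSO. In RPS12 the gap between the groups exceeded the spread within each, and in RPL6 it was slightly smaller than the spread in DMSO. Ribosomal protein genes, like HNRNPA1, have many near-identical processed copies in the genome, so their counts carry an added uncertainty from how reads were placed. Over introns listed in all 6 libraries, 36 of the 55 lay wholly below DMSO (65.5%, against 20% of all genes), with a median of -0.15. Proteasome subunits had 19 of 29 wholly below (65.5%) and 1 above (3.45%), with a median of -0.15. Over introns listed in all 6 libraries, 10 lay below (34.5%). PSMD7, a subunit of the proteasome lid, had 193 and 193 CPM after α-amanitin, against 240 and 250 CPM in DMSO. Oxidative phosphorylation genes had 11 of 32 wholly below (34.4%) and 3 above (9.38%). Their median was -0.07, and 0.00 when libraries were scaled by total split reads. With libraries scaled by total split reads, where the median of all genes was 0.11, the medians of the ribosomal and proteasome lists were -0.13 and -0.07.

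**Figure D3:**
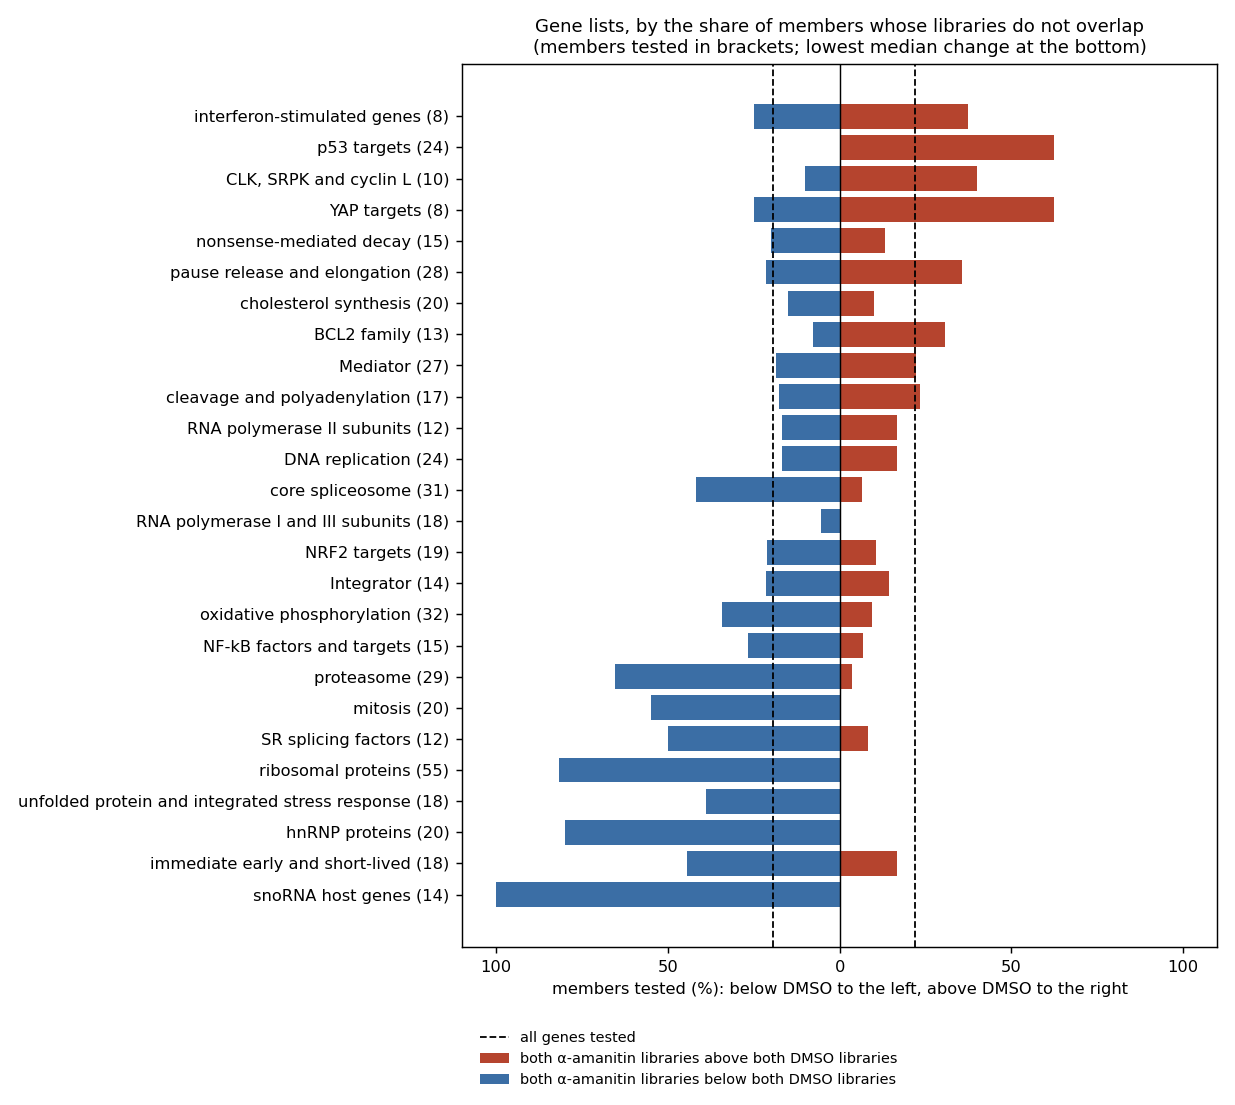
Share of the tested members of each gene list (x axis, percent of members tested) whose 2 α-amanitin libraries both lay above both DMSO libraries (red, to the right) or both below them (blue, to the left), ordered by median log2 fold change. Dashed lines mark the shares over all genes tested, 21.9% above and 19.4% below. The snoRNA host genes reach 100% to the left, and the p53 targets 62.5% to the right.

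The p53 targets are genes that the tumour suppressor p53 switches on when cells meet DNA damage, nucleolar stress or a block of transcription. Of 25 listed, 24 were tested, of which 15 lay wholly above DMSO (62.5%, against 21.9% of all genes) and 0 wholly below. The median log2 fold change was 0.57. CDKN1A, the cyclin-dependent kinase inhibitor p21 that arrests the cell cycle, had 24.2 and 27.4 CPM after α-amanitin, against 9.72 and 14.0 CPM in DMSO (1.13 ± 0.32 SE). MDM2, the ubiquitin ligase that degrades p53, had 65.2 and 70.5 CPM after α-amanitin, against 46.9 and 43.9 CPM in DMSO (0.59 ± 0.17 SE). FDXR, a mitochondrial ferredoxin reductase, had 99.5 and 104 CPM after α-amanitin, against 66.6 and 72.8 CPM in DMSO (0.55 ± 0.14 SE). In all 3 genes the groups were separated by more than the replicates of either group. POLH, a polymerase that copies past damaged bases, had 50.8 and 50.6 CPM after α-amanitin, against 24.3 and 33.5 CPM in DMSO.

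Other members of the list depended on few reads or on listing. SESN1, a regulator of growth signalling under stress, had 14.7 and 15.5 CPM after α-amanitin, against 0 and 4.97 CPM in DMSO, where no intron was listed in replicate 1. PLK3 had 2.48 and 12.1 CPM after α-amanitin, and none of its introns was listed in DMSO. XPC, the damage sensor of nucleotide excision repair, had 43.1 and 33.0 CPM after α-amanitin, against 20.4 and 17.5 CPM in DMSO, but its log2 fold change of 0.96 became 0.16 over the introns listed in all 6 libraries. BAX, GDF15 and TP53I3 overlapped between the groups, with log2 fold changes of -0.09, -0.10 and 0.02. Over introns listed in all 6 libraries, 12 of 17 members lay wholly above DMSO (20.3% of all genes), 0 wholly below, and the median was 0.31.

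Immediate early genes and other genes with short-lived mRNAs report how much new mRNA is made. Of 26 listed, 18 were tested (median -0.38). Of these, 8 lay wholly below DMSO (44.4%, against 19.4% of all genes) and 3 wholly above (16.7%, against 21.9%). Over introns listed in all 6 libraries, 8 of 14 lay below (57.1%, against 20% of all genes) and 1 above (7.14%, against 20.3%). IER3, an early response gene induced by stress, had 29.8 and 28.5 CPM after α-amanitin, against 50.5 and 51.6 CPM in DMSO (-0.82 ± 0.16 SE). ID3, an inhibitor of helix-loop-helix factors, had 33.4 and 43.9 CPM after α-amanitin, against 54.9 and 59.9 CPM in DMSO. MCL1, an antiapoptotic protein of the BCL2 family with a short-lived mRNA, had 45.4 and 51.9 CPM after α-amanitin, against 58.1 and 72.2 CPM in DMSO. ATF3, a stress-induced transcription factor, differed in the other direction, with 9.03 and 4.07 CPM after α-amanitin and no intron listed in DMSO. CCND1, cyclin D1, had 103 and 90.1 CPM after α-amanitin, against 89.2 and 88.2 CPM in DMSO, a difference smaller than the spread between the treated libraries.

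Genes of the unfolded protein and integrated stress responses had 7 of 18 wholly below DMSO (38.9%, against 19.4% of all genes). In this list 0 lay above (against 21.9% of all genes), and the median was -0.22. Over introns listed in all 6 libraries, 5 of 12 lay below (41.7%, against 20% of all genes) and 1 above (8.33%, against 20.3%). ATF4, the transcription factor that carries the integrated stress response, had 105 and 111 CPM after α-amanitin, against 194 and 175 CPM in DMSO (-0.76 ± 0.12 SE). HSPA5, the chaperone BiP of the endoplasmic reticulum, had 447 and 455 CPM after α-amanitin, against 632 and 597 CPM in DMSO (-0.44 ± 0.08 SE). In both genes the replicates lay far closer together than the groups. ASNS and PSAT1, amino acid synthesis genes that ATF4 activates, overlapped between the groups, and ASNS had 190 and 133 CPM after α-amanitin, against 284 and 179 CPM in DMSO. Mitotic genes had 11 of 20 wholly below DMSO (against 19.4% of all genes) and 0 above (against 21.9%), with a median of -0.17. Over introns listed in all 6 libraries, 6 of the 20 lay below (against 20% of all genes) and 1 above (against 20.3%). TOP2A, the topoisomerase that untangles sister chromatids, had 857 and 1030 CPM after α-amanitin, against 1380 and 1560 CPM in DMSO (-0.63 ± 0.14 SE), with all 34 of its introns listed in every library. MKI67, a marker of cycling cells, overlapped between the groups, with 169 and 142 CPM after α-amanitin, against 144 and 110 CPM in DMSO.

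Pause release and elongation factors control how Pol II leaves the promoter and moves through the gene. Of 28 tested, 10 lay wholly above DMSO (35.7%, against 21.9% of all genes) and 6 wholly below (21.4%, against 19.4%), with a median of 0.08. Over introns listed in all 6 libraries, 12 of 26 lay above (46.2%, against 20.3% of all genes) and 3 below (11.5%, against 20%). AFF4, the scaffold of the super elongation complex, had 103 and 103 CPM after α-amanitin, against 79.7 and 75.2 CPM in DMSO (0.41 ± 0.12 SE). CTR9, a subunit of the PAF1 complex, had 211 and 184 CPM after α-amanitin, against 151 and 159 CPM in DMSO. CDK9, the kinase of the elongation factor P-TEFb, had 50.1 and 49.4 CPM after α-amanitin, against 39.6 and 44.5 CPM in DMSO. LARP7, which holds P-TEFb inactive on the 7SK RNA, went the other way, with 46.3 and 48.8 CPM after α-amanitin, against 69.7 and 70.0 CPM in DMSO (-0.55 ± 0.14 SE). MED14, the scaffold subunit of Mediator, had 53.3 and 60.6 CPM after α-amanitin, against 37.9 and 30 CPM in DMSO. Its log2 fold change of 0.77 was 0.24 over introns listed in all 6 libraries. Mediator genes as a list had 6 of 27 above (22.2%) and 5 below (18.5%). Targets of the transcriptional coactivator YAP were divided, 5 of 8 above (62.5%) and 2 below (25.0%). CCN1, a secreted matrix protein and an early YAP target, had 128 and 133 CPM after α-amanitin, against 231 and 197 CPM in DMSO (-0.71 ± 0.13 SE). AXL, a receptor tyrosine kinase, had 404 and 395 CPM after α-amanitin, against 330 and 287 CPM in DMSO. HMOX1, the haem oxygenase that NRF2 activates, had 66.6 and 93.9 CPM after α-amanitin, against 147 and 143 CPM in DMSO. Of the 19 NRF2 targets, 4 lay wholly below (21.1%) and 2 above (10.5%). The remaining lists are given as counts, beside 21.9% of all genes above and 19.4% below. Interferon-stimulated genes, with only 8 tested, exceeded both shares, with 37.5% wholly above and 25.0% wholly below DMSO. Wholly above and wholly below it lay 4 and 4 of 24 DNA replication genes, 2 and 3 of 20 cholesterol synthesis genes, 4 and 3 of 17 cleavage and polyadenylation factors, and 2 and 3 of 15 factors of nonsense-mediated decay. For NF-kB factors and targets these counts were 1 and 4 of 15, for Integrator 2 and 3 of 14, for the BCL2 family 4 and 1 of 13, and for interferon-stimulated genes 3 and 2 of 8.

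The genes with the largest differences were mostly ones with few introns listed. The 12 largest on either side were taken among genes with a mean of at least 50 reads per library, an unadjusted p under 0.05 and no overlap. Among those that were higher, LIMK2, a kinase that controls actin, had 16.5 and 20.8 CPM after α-amanitin and no intron listed in DMSO. RARA, a retinoic acid receptor, had 15.8 and 17.9 CPM after α-amanitin, against 3.40 and 3.24 CPM in DMSO, with 5 and 7 introns listed against 1 and 1. Over the 1 intron listed in every library its log2 fold change was -0.52 in place of 2.32. RERE, a nuclear receptor coregulator, had 42.2 and 43.4 CPM after α-amanitin, against 36.9 and 3.03 CPM in DMSO. Its log2 fold change of 2.19 became 0.21 without DMSO replicate 2 and -0.28 over introns listed in all 6 libraries. NDRG1, a gene induced by hypoxia and stress, had 0.30 over such introns in place of 2.01. TNFRSF10D, a decoy receptor for the death ligand TRAIL, kept more of its difference. It had 57.6 and 41.2 CPM after α-amanitin, against 6.32 and 19.2 CPM in DMSO, with a log2 fold change of 2.01, and 1.22 over the 2 introns listed in every library.

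Among the largest lower genes, the chemokine CCL2 had 42.9 and 80 CPM after α-amanitin, against 132 and 178 CPM in DMSO (-1.32 ± 0.30 SE). Both of its introns were listed in every library, and the replicates of each group differed by less than the groups. The cytokine LIF had 8.35 and 6.48 CPM after α-amanitin, against 19.0 and 16 CPM in DMSO. CPT1B, a carnitine palmitoyltransferase of muscle mitochondria, had 5.42 and 13.0 CPM after α-amanitin, against 57.8 and 40.0 CPM in DMSO (-2.27 ± 0.45 SE), with 2 and 8 introns listed after α-amanitin against 18 and 12 in DMSO. Over the 1 intron of CPT1B listed in every library the log2 fold change was -1.22. The chemokine CXCL2, a member of the NF-kB list with a mean of 26.2 reads and not among the 12 largest falls, had 13.6 and 10.6 CPM in DMSO and no intron listed in any α-amanitin library.

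The libraries also differed in which introns were listed at all. There were 4005 introns listed in both α-amanitin libraries and in neither DMSO library, and 691 listed in both DMSO libraries and in neither α-amanitin library, beside 60491 listed in all 4. Of the 4005, 3687 were annotated, and the median of the 4005 was 12.5 split reads where listed, just above the minimum. The deepest of the 4 libraries was α-amanitin replicate 2, with 6498515 split reads against 4297890 to 4765752 in DMSO, and its part in this difference was not tested. An intron of LAMA5, a laminin chain, had 44 and 21 split reads after α-amanitin and was not listed in DMSO. An intron of ADAMTS10, a metalloprotease of the extracellular matrix, had 28 and 19 split reads in DMSO and was not listed after α-amanitin at 1 μg/mL.

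Intron retention was measured as the unspliced share, that is reads across the boundaries of an intron as a share of these reads and of split reads counted once for each boundary. Over all introns of a library the share was 26.8% and 23.5% after α-amanitin, against 24.2% and 15.3% in DMSO. The mean difference was 5.4 percentage points, and the two-sided exact permutation test gave p = 0.667, where 2 against 2 libraries cannot give less than 0.333. This share says little about introns of genes, since 89.9% and 86.7% of the boundary reads after α-amanitin, against 88.4% and 79.3% in DMSO, lay at introns with no annotated site. One of these, chr21:9827147-9827300, had 4 split reads and 1117400 reads at its 5′ boundary in α-amanitin replicate 1 and was not listed in the other 3 libraries. Over annotated introns the share was 2.64% and 2.72% after α-amanitin, against 2.62% and 2.52% in DMSO, a mean difference of 0.11 percentage points (exact permutation p = 0.333, the smallest possible). Over annotated introns listed in all 4 libraries it was 2.10% and 1.90% after α-amanitin, against 2.08% and 1.89% in DMSO, so that the replicates differed by more than the groups.

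At 5′ boundaries of annotated introns the share was 2.35% and 2.40% after α-amanitin, against 2.29% and 2.14% in DMSO, and at 3′ boundaries 2.93% and 3.04%, against 2.95% and 2.91% in DMSO. The groups did not overlap at 5′ boundaries and overlapped at 3′ boundaries. Introns were also cut into 4 parts by their order within the transcript from the 5′ end, not by distance along the gene. Introns of the first part had 3.11% and 3.46% after α-amanitin, against 3.1% and 3.11% in DMSO. Those of the last part had 2.66% and 2.8%, against 2.62% and 2.7% in DMSO. The groups touched in the first part and overlapped in the other 3. The ratio of split reads in the first part to those in the last is a sign of RNA quality that falls when reads are lost towards the 5′ end. This ratio was 0.675 and 0.697 after α-amanitin, against 0.642 and 0.665 in DMSO (exact permutation p = 0.333, the smallest possible). Its part in the gene and intron results was not tested.

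Single introns were tested with a quasi-binomial model of unspliced and split reads, with the spread moderated by limma. Of 6733 introns in 2688 genes, none passed an adjusted p of 0.05 (percent called 0, lowest 0.61), and 527 had an unadjusted p under 0.05, with a higher share in 336 and a lower share in 191. The groups did not overlap in 1165 introns with a higher share (17.3%) and 845 with a lower share (12.6%). An intron of CSNK1D, casein kinase 1 delta of the circadian clock, had 28 and 31 unspliced reads beside 69 and 74 split reads after α-amanitin, against 3 and 7 unspliced beside 66 and 105 split reads in DMSO. Its unspliced share was 16.9% and 17.3% after α-amanitin, against 2.22% and 3.23% in DMSO, and the replicates lay close together (log2 odds difference 2.76 ± 0.75 SE, limma-moderated adjusted p = 0.61). At 2 μg/mL it was 14.7% and 22.0%. The intron lies at chr17:80211120-80213305 on the minus strand, where the positions are the exon bases on either side, between coding exons in 6 annotated transcripts and in the 3′ UTR of 1. Its splice sites are printed because this intron had a large difference with reads in every library.
CSNK1D intron donor, chr17:80213285-80213314, minus strand: tgaccaaatgGTaaggactgtttcctgaca
CSNK1D intron acceptor, chr17:80211111-80211140, minus strand: cgcccttgctctgctcacAGatcagtcgca

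An intron of TCF25, a gene linked to ribosome-associated quality control (chr16:89960266-89961446), had an unspliced share of 49.2% and 34.6% after α-amanitin, against 10.3% and 17.5% in DMSO, and 62.0% and 47.9% at 2 μg/mL. The treated replicates differed by more than the control replicates, and the groups stayed apart. In TNPO2, a nuclear import receptor, the share was 8.47% and 11.8% after α-amanitin, against 0% in both DMSO libraries, where 47 and 44 split reads were counted. In MFF, which recruits the mitochondrial fission machinery, an intron of the 5′ UTR had 15.8% and 11.7% after α-amanitin, against 0% in both DMSO libraries, and 0% in both libraries at 2 μg/mL. No boundary count above 0 was below 3, so a share of 0 can hide a few reads. Introns of the Integrator subunit INTS1, the lipid phosphatase PLPP2 and the tRNA phosphotransferase TRPT1 had between 3.43% and 18.5% after α-amanitin and 0% in DMSO.

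Among introns with a lower share, the lowest unadjusted p was that of chr6:27106460-27114188 on the minus strand, an intron assigned to no gene and with neither site annotated. Its unspliced share was 61.1% and 69.4% after α-amanitin, against 91.6% and 88.8% in DMSO, and 34.0% and 45.3% at 2 μg/mL. Shares did not overlap between the groups, and split reads numbered 59 and 52 after α-amanitin, against 11 and 17 in DMSO. In SNRNP70 (chr19:49604728-49607891) the share was 1.43% and 0.506% after α-amanitin, against 4.64% and 3.19% in DMSO, and 0.271% and 0.226% at 2 μg/mL. This intron also holds an alternative exon, described with exon inclusion. In the ribosomal protein gene RPS27A, 0 unspliced reads beside 1609 and 2580 split reads were counted after α-amanitin, against 12 and 13 beside 1753 and 1972 in DMSO. RPL3 had 0 in both α-amanitin libraries, against 12 and 10 unspliced reads in DMSO, and RPL21 had 0 in both, against 16 and 7 in DMSO. Of 206 introns of ribosomal protein genes, the groups did not overlap in 52 with a lower and 25 with a higher share. Among all 6733 introns tested, 12.6% had a lower and 17.3% a higher share without overlap. Summed over the introns of ribosomal protein genes the share was 1.01% and 0.991% after α-amanitin, against 1.03% and 1.08% in DMSO. In YTHDC1, a reader of methylated adenosine in nuclear RNA, the share was 0% in both α-amanitin libraries, against 13.3% and 6.49% in DMSO. Introns of proteasome genes had 15 of 60 higher and 4 lower, where all introns tested also leaned higher. Summed over these proteasome introns the share was 1.58% and 1.00% after α-amanitin, against 1.22% and 0.984% in DMSO, and the groups overlapped.

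**Figure D4:**
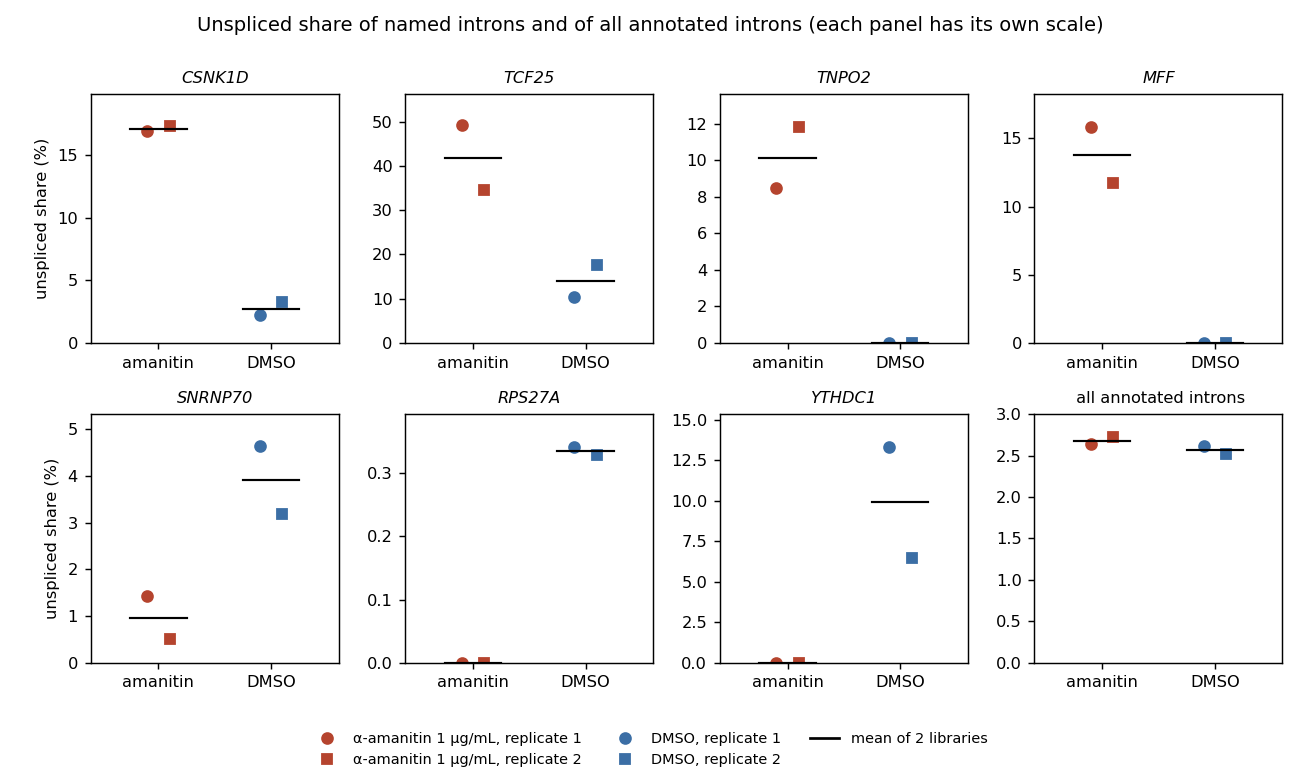
Unspliced share (y axis, percent, each panel on its own scale from 0) of 7 introns and of all annotated introns together in the 2 α-amanitin libraries (left) and the 2 DMSO libraries (right), with bars at the mean of 2 libraries. CSNK1D, TCF25, TNPO2 and MFF lie above DMSO, SNRNP70, RPS27A and YTHDC1 below it, and all annotated introns lie between 2.52% and 2.72% in the 4 libraries.

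Unspliced reads summed per gene gave no call among 3666 genes (percent called 0, lowest adjusted p 0.65, limma-moderated), with 239 at an unadjusted p under 0.05, and with 20.3% of genes wholly above and 12.1% wholly below DMSO. DDX39A, an RNA helicase of mRNA export, had 9.69% and 5.13% after α-amanitin, against 3.40% and 2.27% in DMSO, over 10 introns, and 12.1% and 6.94% at 2 μg/mL. ARGLU1, a coactivator that also regulates splicing and keeps an intron in a nuclear transcript of its own, had 10.8% and 8.15% after α-amanitin, against 24.4% and 21.2% in DMSO, and 8.75% and 6.19% at 2 μg/mL. In ARGLU1 the gap between the groups exceeded the spread within each, whereas the treated replicates of DDX39A differed by more than the gap between the groups. VMP1, an autophagy protein, had 5.00% and 5.09% after α-amanitin, against 12.5% and 6.18% in DMSO.

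The balance of 5′ and 3′ boundary reads was tested in 833 introns, of which none passed (percent called 0, lowest adjusted p 0.29, limma-moderated) and 49 had an unadjusted p under 0.05. In RPS9 the 5′ boundary took 46.7% and 51.4% of the unspliced reads after α-amanitin, against 17.2% and 25.5% in DMSO, from 14 and 18 reads at that boundary after α-amanitin and 5 and 13 in DMSO. In ARL6IP4 it took 56.5% and 62.0% after α-amanitin, against 47.7% and 48.1% in DMSO. In RACK1, a ribosomal scaffold protein that hosts snoRNAs, it took 52.5% and 42.6% after α-amanitin, against 69.0% and 65.3% in DMSO.

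Alternative splice sites were tested as pairs of sites that share the opposite end of the intron and lie at most 300 nt apart. The value is the share of split reads on the less used site of the pair, judged over the 6 libraries. Of 453 pairs of 5′ sites in 412 genes, 4 passed an adjusted p of 0.05 (0.883%), with a higher share in 1 and a lower share in 3. All 4 had an adjusted p of 0.046 (quasi-binomial test, limma-moderated spread). The groups did not overlap in 73 pairs with a higher share (16.1%) and 91 with a lower share (20.1%).

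In OCIAD1, a regulator of JAK/STAT signalling and mitochondrial metabolism, the less used site, 247 nt downstream of the other in the 5′ UTR, was used more. It had 52 and 63 reads beside 103 and 124 on the most used site (33.5% and 33.7%) after α-amanitin, against 33 and 27 beside 102 and 145 (24.4% and 15.7%) in DMSO. The share rose by 1.05 ± 0.30 SE on the log2 odds scale. In 5 annotated transcripts 1 exon spans both sites, so that the choice changes the length of the 5′ UTR. The share was 36.3% and 35.1% at 2 μg/mL. Without DMSO replicate 2 the difference was 0.64.

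In LGALS8, a galectin that binds sugars on damaged endosomes, the less used site took 37.5% and 35.5% after α-amanitin, against 56.0% and 61.4% in DMSO, and fell by 1.32 ± 0.35 SE on the log2 odds scale. Its share was 19.0% and 24.4% at 2 μg/mL. The 2 sites lie 253 nt apart and belong to separate exons in 6 annotated transcripts and to 1 exon in 1, so the pair mostly compares inclusion with skipping of an exon. In SNHG1 the less used site had 13 and 10 reads beside 37 and 49 on the most used one (26.0% and 16.9%) after α-amanitin, against 28 and 38 beside 38 and 50 (42.4% and 43.2%) in DMSO, and fell by 1.47 ± 0.43 SE. The sites lie 245 nt apart and belong to separate exons in 45 transcripts and to 1 exon in 2. SNHG1 thus had both fewer split reads and another balance of sites than DMSO, and its share was 7.84% and 23.1% at 2 μg/mL. In NETO2, an auxiliary subunit of glutamate receptors, both sites end the same coding exon 21 nt apart. The site that makes the shorter exon took 24.6% and 24.8% after α-amanitin, against 46.7% and 44.2% in DMSO, and fell by 1.32 ± 0.38 SE, with 26.6% and 14.9% at 2 μg/mL.

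In each of these 4 pairs both α-amanitin libraries lay on 1 side of both DMSO libraries, and each kept its direction under every alternative run. The calls were not stable. With the 4 libraries of α-amanitin 1 μg/mL and DMSO alone, or with all 10 libraries (where LGALS8 and SNHG1 could not be tested), 0 pairs passed. The count was also 0 with unlisted introns set to 0. It was 0 with moderation of the spread without a trend or robust fitting, an alternative chosen after seeing the data. Sites at most 100 nt apart gave 0 too, but that limit leaves out OCIAD1, LGALS8 and SNHG1 by their distance. With at least 30 reads in every library 1 passed. With a term for the replicate number added to the fit, 6 passed, so the count moved both ways. The donor sequences of the pairs were scored by their matches to the commonest base at each of 9 positions, the last 3 exon bases and the first 6 intron bases (CAGGTAAGT), for which the median over 33605 donors was 6 and 57.8% had 6 or fewer. The less used and the most used site had 6 and 6 matches in OCIAD1, 5 and 6 in LGALS8, 8 and 8 in SNHG1, and 6 and 5 in NETO2. The site whose share was lower after α-amanitin was thus not always the one with fewer matches.

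Further pairs of 5′ sites had no overlap but did not pass. In HNRNPH1, an hnRNP that binds G-rich RNA, a site of the 5′ UTR 41 nt from the most used one took 15.8% and 13.9% after α-amanitin, against 27.7% and 32.9% in DMSO, and 14.9% and 14.3% at 2 μg/mL. In SLX9, which acts in ribosome assembly, a site 45 nt from the most used one took 59.5% and 50.5% after α-amanitin, against 30% and 37.7% in DMSO. In DNMT1, the maintenance DNA methyltransferase, a site of a separate exon took 37.5% and 26.1% after α-amanitin, against 12.9% and 19.5% in DMSO. In SNHG5 a minor site took 3% and 1.9% after α-amanitin, against 1.16% and 1.26% in DMSO, beside 1486 and 2168 reads on the most used site after α-amanitin and 2044 and 2199 in DMSO.

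Of 527 pairs of 3′ sites in 476 genes, none passed (percent called 0, lowest adjusted p 0.061, limma-moderated), and 36 had an unadjusted p under 0.05, 17 with a higher and 19 with a lower share. The groups did not overlap in 90 with a higher share (17.1%) and 89 with a lower share (16.9%). The lowest p was that of CRYZ, a quinone reductase that also binds RNA. Its less used site, which begins a separate exon in all 4 annotated transcripts that hold it, had 34 and 50 reads beside 51 and 74 on the most used one (40% and 40.3%) after α-amanitin, against 45 and 62 beside 19 and 46 (70.3% and 57.4%) in DMSO. The share was lower still at 2 μg/mL, 20.7% and 19.6%. The log2 odds differed by -1.29 ± 0.32 SE, with an adjusted p of 0.061, and of 0.029 and 0.035 in limma-moderated fits to the 4 libraries and to all 10. In SNRNP70 a site 27 nt downstream of the most used one took 33.6% and 32.0% after α-amanitin, against 45.0% and 44.4% in DMSO. In EIF3B, a subunit of translation initiation factor 3, a site 75 nt downstream took 38.6% and 40.5% after α-amanitin, against 59.8% and 48.2% in DMSO. In MATR3, a nuclear matrix protein that binds RNA, a site 144 nt upstream took 18.2% and 19.3% after α-amanitin, against 10.2% and 12% in DMSO, and 12.8% and 12.5% at 2 μg/mL.

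Sites 3 nt apart, where the acceptor sequence repeats and 1 amino acid is added or left out, made up 207 of the 527 pairs. The groups did not overlap in 31 with a higher and 34 with a lower share, and the median share was 27.3% and 26.6% after α-amanitin, against 28.1% and 28.0% in DMSO. WWC1 (KIBRA), a scaffold of the Hippo pathway, and CLUH, which binds mRNAs of mitochondrial proteins, were the 2 of them with a higher share at an unadjusted p under 0.05, and their sites are printed to show the repeated AG. Another 2 such pairs had a lower share at that p, and the median difference over all 207 was -0.564 percentage points.
WWC1 acceptor, less used site, chr5:167894828-167894857, plus strand: ttgcttgctttgcccagcAGatggaccgag
WWC1 acceptor, most used site, chr5:167894825-167894854, plus strand: gccttgcttgctttgcccAGcagatggacc
CLUH acceptor, less used site, chr17:2599820-2599849, minus strand: gagccatgtctccacagcAGaccctcggag
CLUH acceptor, most used site, chr17:2599823-2599852, minus strand: atggagccatgtctccacAGcagaccctcg

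In WWC1 the downstream site had 27 and 38 reads beside 20 and 39 on the upstream one (57.4% and 49.4%) after α-amanitin, against 14 and 20 beside 32 and 31 (30.4% and 39.2%) in DMSO. In CLUH it had 14 and 25 reads beside 11 and 27 (56.0% and 48.1%) after α-amanitin, against 9 and 7 beside 20 and 21 (31.0% and 25%) in DMSO. Both rest on few reads. At 2 μg/mL the share in WWC1 was 40% and 51.2%, and that in CLUH 40.9% and 42.2%.

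**Figure D5:**
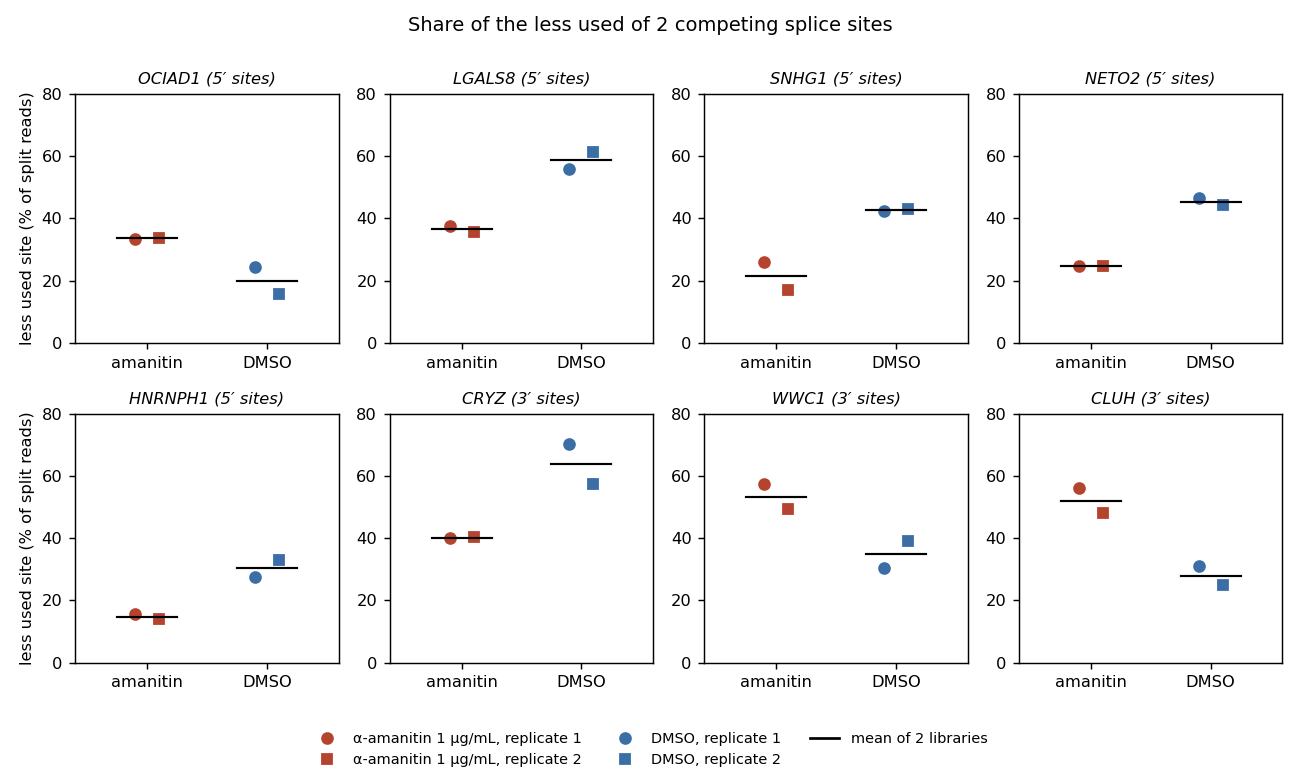
Share of split reads on the less used of 2 competing splice sites (y axis, percent of the reads of both sites, 0 to 80 in every panel) for 5 pairs of 5′ sites and 3 pairs of 3′ sites, in the 2 α-amanitin libraries (left) and the 2 DMSO libraries (right), with bars at the mean of 2 libraries. The share is higher after α-amanitin in OCIAD1, WWC1 and CLUH and lower in LGALS8, SNHG1, NETO2, HNRNPH1 and CRYZ, with no overlap in any panel.

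Exon inclusion (Ψ) was tested in 10341 exons, of which none passed (percent called 0, lowest adjusted p 0.23, limma-moderated) and 1204 had an unadjusted p under 0.05, with a higher Ψ in 404 and a lower Ψ in 800. The groups did not overlap in 13.6% with a higher and 20.4% with a lower Ψ. An exon of 60 nt in SNRNP70 (chr19:49605371-49605430) had a Ψ of 0 and 0.003 after α-amanitin, against 0.035 and 0.026 in DMSO, and 0 at 2 μg/mL. It lies within the SNRNP70 intron whose unspliced share was lower. The reads that skip the exon are the split reads of that intron (413 and 688 after α-amanitin, against 349 and 334 in DMSO). The 2 values are therefore not independent. In RPS24 an exon of 22 nt of the 3′ UTR had a Ψ of 0.053 and 0.055 after α-amanitin, against 0.035 and 0.039 in DMSO, and 0.082 and 0.080 at 2 μg/mL. Reads that skip this exon numbered 3891 and 5959 after α-amanitin, against 3820 and 4776 in DMSO. An exon of HNRNPH1 was included at 0.041 and 0.024 after α-amanitin and at 0 in DMSO, and an exon of cyclin L2 (CCNL2) at 0.096 and 0.076 after α-amanitin and at 0 in DMSO.

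The deposited ret count, which gives reads that run across an exon's boundaries without splicing, did produce calls. Of 21539 exons, 61 passed an adjusted p of 0.05 (0.283%), 33 higher and 28 lower, in 54 genes. The number was 31 without α-amanitin replicate 2 and 101 without DMSO replicate 1. With a term for the replicate number added to the fit, 0 exons passed. The 61 called exons had boundary sites that were not listed in every library. In 46 of the 61 a boundary belonged to no intron listed in any of the 6 libraries, in the other 15 to an intron listed in some of them, and in 47 both libraries of a group had a ret of 0. An exon of RSL1D1, a nucleolar protein, had 205 and 329 ret reads after α-amanitin, against 0 in both DMSO libraries and 0 in both libraries at 2 μg/mL. An exon of PRMT5, an arginine methyltransferase of splicing proteins, had 0 ret reads in both α-amanitin libraries, against 111 and 195 in DMSO. Such values were all or nothing, while reads of the RSL1D1 exon spliced in or out summed to 46 and 77 after α-amanitin, against 45 and 58 in DMSO. Among the 8084 exons with both boundary sites in introns listed in all 6 libraries, refitted alone in an alternative chosen after seeing the data, 0 passed (lowest adjusted p 0.58, limma-moderated) and 678 had an unadjusted p under 0.05.

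The higher dose shares its DMSO libraries with the comparison above, so its values are given side by side and not as independent evidence. At 2 μg/mL 606 genes passed against DMSO (6.29%), and 0 genes differed between 2 and 1 μg/mL at an adjusted p of 0.05 (limma voom), with 1258 at an unadjusted p under 0.05. The median log2 fold change of snoRNA host genes was -0.58 at 1 μg/mL and -1.10 at 2 μg/mL, that of p53 targets 0.57 and 1.30, and that of hnRNP proteins -0.22 and -0.48. Ribosomal protein genes had -0.20 at the lower dose and -0.08 at the higher, beside 0.04 and 0.05 for all genes tested. At 2 μg/mL 18 ribosomal protein genes lay wholly below and 6 wholly above DMSO, and of all genes tested 27.5% lay wholly below and 31.4% wholly above.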

How the data were processed

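A549 poly(A) RNA libraries (stranded kit) were sequenced on a NextSeq 500. The authors aligned reads to GRCh37 with STAR (2.7.3a in the submitters' notes, another version in the paper's methods) and deposited raw read counts per intron and exon from the IPSA pipeline, held in a text field with no normalization. Counts in that field were recorded as another kind of value, so negative binomial tests such as edgeR were not run. Introns were given to genes of GENCODE 44 on GRCh37, and unlisted introns entered gene sums as 0. Genes needed 10 reads in 2 libraries and 15 over the fit. Fits held 6 libraries (DMSO, α-amanitin at 1 and 2 μg/mL) and used limma 3.58.1 in R 4.3.3 with Python 3.11.15. Shares were tested by a quasi-binomial F test with the spread moderated by limma (trend on depth, robust, floor of 1). On simulated data only this setting of the test was run, so they do not compare it with others. Introns and ret counts needed 20 reads in every library, and sites and exon inclusion 10. The chi-squared per degree of freedom between replicates was 9.9 after α-amanitin at 1 μg/mL and 10.8 in DMSO, more than sampling noise. Named genes were the 12 largest differences per direction, all POLR2 genes, uptake transporters and the 3 largest of each list, and named introns and sites the lowest p or largest share differences. Further list members were chosen after their values were seen, and named genes under a mean of 15 reads were not described. The members, the 31 lists and the rules were chosen with earlier results of these data known. Alternatives covered scaling, filters, libraries in the fit, the replicate block and leaving out each library. Some items chosen by these rules are not reported here.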

Additional observations from a re-analysis of the deposited data

How the results depend on the processing

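Fits to genes called 0 under every alternative except the replicate block, where 11 passed (3 higher, 8 lower). No label ties the replicate numbers to a shared batch, and whether same-numbered libraries were handled together was not tested. Over 7011 genes, the deviations of same-numbered libraries from their group means correlated at 0.272 between α-amanitin 1 μg/mL and DMSO, 0.508 between 1 and 2 μg/mL α-amanitin and 0.35 between 2 μg/mL and DMSO. Under the block POLR2A had a log2 fold change of 1.33 (limma adjusted p = 0.0049), COL1A1 had -0.04, 6 pairs of 5′ sites passed and 0 exons passed on ret counts. With total split reads POLR2J had 0.04, KRT18 0.06 and POLR2G 0.02. Over introns listed in all 6 libraries, POLR2J had 0.03, KRT18 0.03, POLR2G 0.00, ELL2 -0.38, RARA -0.52, RERE -0.28 and CLP1 -0.06.

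The count of 3′ site pairs was 1 with the 4 libraries and 1 with all 10. That of 5′ site pairs was 0 with the 4 libraries, 0 with all 10 and 0 with unlisted introns as 0. It was 0 with no trend on depth and no robust fitting, and 1 with a minimum of 30. With sites at most 100 nt apart it was 0, a limit that leaves out OCIAD1, LGALS8 and SNHG1. Exons called on ret counts numbered 26 with all 10 libraries, 0 with both boundary sites in listed introns, and 31 (without α-amanitin replicate 2) to 101 (without DMSO replicate 1). At a mean of at least 10 reads, the introns listed only after α-amanitin numbered 2752 and those listed only in DMSO 377. Other causes were not tested.

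On leaving out 1 library, where a group of 1 is assumed to vary like the others, log2 fold changes crossed 0 in POLR3B (-6.13 to 0.07), POLR2E (-0.06 to 0.16), POLR2C (-0.01 to 0.17), POLR2I (-0.07 to 0.20), COL1A1 (-1.18 to 2.50), KRT18 (-0.17 to 0.11), POLR3G (-0.06 to 0.74), SESN2 (-1.19 to 6.20), POLR3F (-0.19 to 1.65), POLR2D (-0.58 to 0.03), POLR2H (-0.41 to 0.02), PCF11 (-1.31 to 0.09) and POLR2G (-0.20 to 0.11). Fits to intron and gene unspliced reads, boundary balance and exon inclusion called 0 under each alternative run.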
